A study of Mus musculus with 6 samples.

Results

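Contractile genes of activated hepatic stellate cells were examined in mouse livers made to express Sonic Hedgehog (SHH), the secreted ligand of the Hedgehog pathway. The set held 10 genes, chosen by name: Acta2, Tagln, Myl9, Tpm1, Tpm2, Cnn1, Cnn2, Actg2, Des and Cald1. All 10 were measured, among 22180 genes in all. Each was read from the probe set that names that gene alone and has the highest mean over the 6 arrays. All 10 had just 1 such probe set, and Des had 1 more that also names another gene and was not used.

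The series compared 3 livers expressing GFP (mice 13, 21 and 6) with 3 livers expressing SHH (mice 26, 28 and 31), 1 Affymetrix array per mouse. Every mouse was a male with a C57BL/6 strain background, kept in a specific-pathogen-free room. The design text states that the genes were delivered by hydrodynamic transfection, a rapid tail-vein injection of DNA that mainly reaches hepatocytes, and that fibrosis and genes related to it were the question. The sources used here do not give the age of the mice, the time after injection, the promoter of the introduced genes or the species of the SHH sequence, and the labels split the samples into no batches. Shh signal on the log2 scale was 3.43, 3.67 and 3.86 in GFP 13, 21 and 6. It was 4.57, 4.28 and 4.63 in SHH 26, 28 and 31. The lowest SHH value was above the highest GFP value, as for 5.26% of all genes. The mean was 1.79-fold higher, which did not pass an adjusted p of 0.05 (limma, adjusted p = 0.356). Shh was a dim gene here, and only SHH 26 and SHH 31 exceeded the median of their own array (4.33 and 4.40). Changes of dim genes tend to be understated on arrays.

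Stellate cells lie between hepatocytes and the sinusoidal endothelium. In injured liver they turn into myofibroblasts, which lay down collagen and build a contractile apparatus close to that of smooth muscle. In that apparatus, myosin pulls on filaments of smooth muscle actin. Tropomyosin, caldesmon and calponin sit along the actin and control access to it, the regulatory myosin light chain switches the motor on, and desmin filaments hold the cell together. Many of these genes are controlled by serum response factor, whose binding site is the CArG box. The same genes are expressed by vascular smooth muscle, and Tpm1, Tpm2 and Des also by striated muscle. In whole liver, fewer cells of a type and less RNA per cell cannot be told apart.

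None of the 10 contractile genes passed the threshold in the comparison of SHH with GFP livers. In limma with Benjamini-Hochberg adjustment over all genes, 0 of 10 were called at an adjusted p under 0.05, against 0% of the 22180 genes in either direction. At an unadjusted p under 0.05, 1 of 10 was higher (Tpm1), where 3.33% of all genes were, and 0 were lower, where 4.01% were. The values of the groups overlapped for all 10, whereas 12.5% of all genes had groups that did not overlap (5.26% with the SHH livers higher and 7.25% with them lower). Means were higher in SHH livers for 6 of the 10 and lower for 4, and they were higher for 43.8% of all genes. The median difference was 0.07 on the log2 scale for the 10 genes and -0.03 for all genes.

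**Figure D1:**
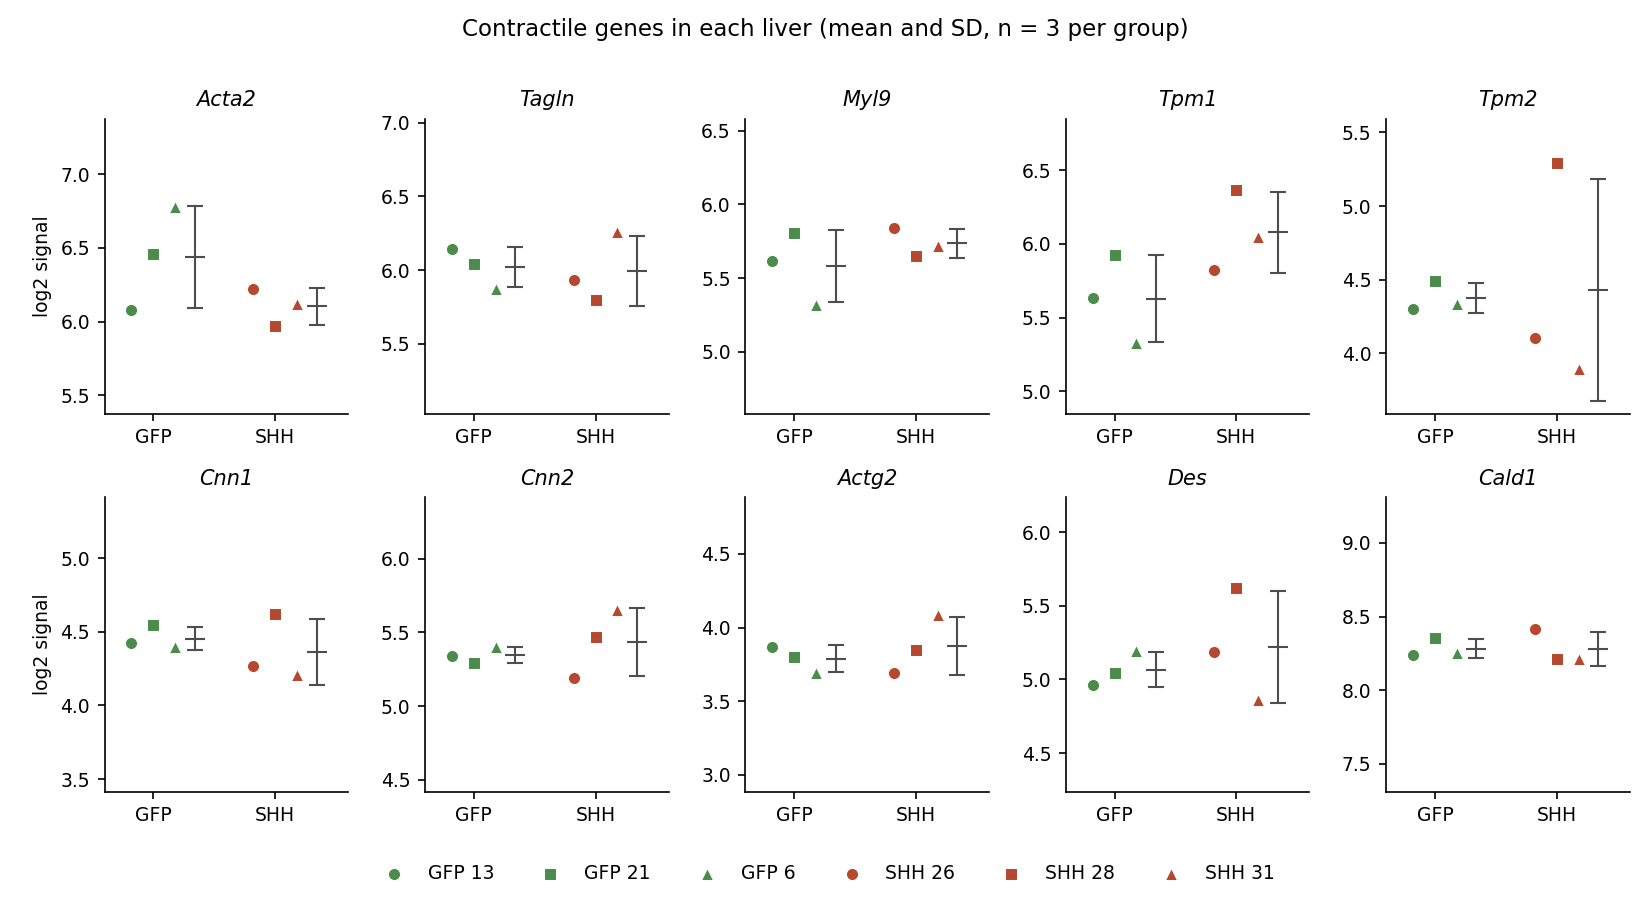
Log2 signal (y axis) of the 10 contractile genes in each of the 6 livers, with each group's mean and SD (n = 3) drawn to the right of its points; every panel spans at least 2 units of log2 signal. The groups overlap in all 10 panels, and SHH 28 is the highest liver for Tpm1, Tpm2, Cnn1 and Des.

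One array stood apart in a way that bears on these genes. SHH 28 carried more signal of striated muscle genes than any other liver. Of 15 genes listed as markers of skeletal and heart muscle, 14 were highest in SHH 28, while this liver was the highest for 17.6% of all genes. The list, like the others, was chosen with earlier results of these data known. The fast myosin heavy chain gene Myh2 was 6.42 in SHH 28 and 3.84 to 4.20 in the other 5 livers, and no other gene of the 22180 stood as far above the next liver in this mouse. The skeletal actin gene Acta1 was 6.90 in SHH 28 and 4.72 to 5.23 in the others, the troponin gene Tnnt3 6.75 against 4.49 to 5.12, and the myoglobin gene Mb 6.86 against 5.11 to 5.30. In all, 8 of the 15 lay more than 0.5 above the next liver in SHH 28, as did 0.906% of all genes, and 0 of the 15 did so in each other liver. The mean of the list, relative to that of the GFP livers, was 1.04 in SHH 28 and -0.16 to 0.07 in the other livers. The heart actin gene Actc1 (3.60) and the slow myosin gene Myh7 (4.92) in SHH 28 were within 0.04 and 0.03 of the next liver. SHH means exceeded GFP means for 11 of the 15 muscle genes with all 6 mice and for 6 of the 15 without SHH 28. None passed the threshold.

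The contractile genes that striated muscle also uses were highest in the same liver. Tpm2 encodes beta-tropomyosin. Its log2 signal was 4.30, 4.49 and 4.34 in GFP 13, 21 and 6 and 4.11, 5.29 and 3.89 in SHH 26, 28 and 31. SHH 28 lay 0.80 above every other liver, a gap that 0.32% of all genes matched or exceeded in that mouse, while the other SHH livers lay below all GFP livers. The mean difference was 0.05 (95% interval -0.66 to 0.77; limma, adjusted p = 0.982). Without SHH 28 it became -0.38 (95% interval -0.71 to -0.04; unadjusted p = 0.0338 and adjusted p = 0.736 in limma, with adjusted p of 0.736 to 0.996 over all alternatives). The spread of Tpm2 within groups, a pooled SD of 0.54, was exceeded by 1.66% of all genes.

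Des encodes desmin, the intermediate filament protein of muscle and of rodent stellate cells. It was 4.96, 5.04 and 5.19 in GFP 13, 21 and 6 and 5.19, 5.62 and 4.86 in SHH 26, 28 and 31. SHH 28 was the highest and SHH 31 the lowest of the 6 livers. The gap of 0.42 between SHH 28 and the next liver was matched or exceeded by 1.34% of all genes. The difference of 0.16 (95% interval -0.28 to 0.59; limma, adjusted p = 0.907) became -0.04 without SHH 28.

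Tpm1 encodes alpha-tropomyosin and had the smallest unadjusted p of the 10. It was 5.63, 5.92 and 5.33 in GFP 13, 21 and 6 and 5.82, 6.37 and 6.05 in SHH 26, 28 and 31. SHH 28 and SHH 31 lay above all GFP livers, SHH 26 below GFP 21. The SHH mean was 1.37-fold higher, and the difference was 0.45 (SE 0.19, 95% interval 0.01 to 0.89; limma, unadjusted p = 0.0445, adjusted p = 0.671). Without SHH 28 the difference was 0.31 (95% interval -0.15 to 0.76), and it stayed above 0 with any 1 mouse left out (0.30 to 0.60). How much of the signal of Tpm1, Tpm2 and Des in SHH 28 came with the striated muscle genes was not tested.

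**Figure D2:**
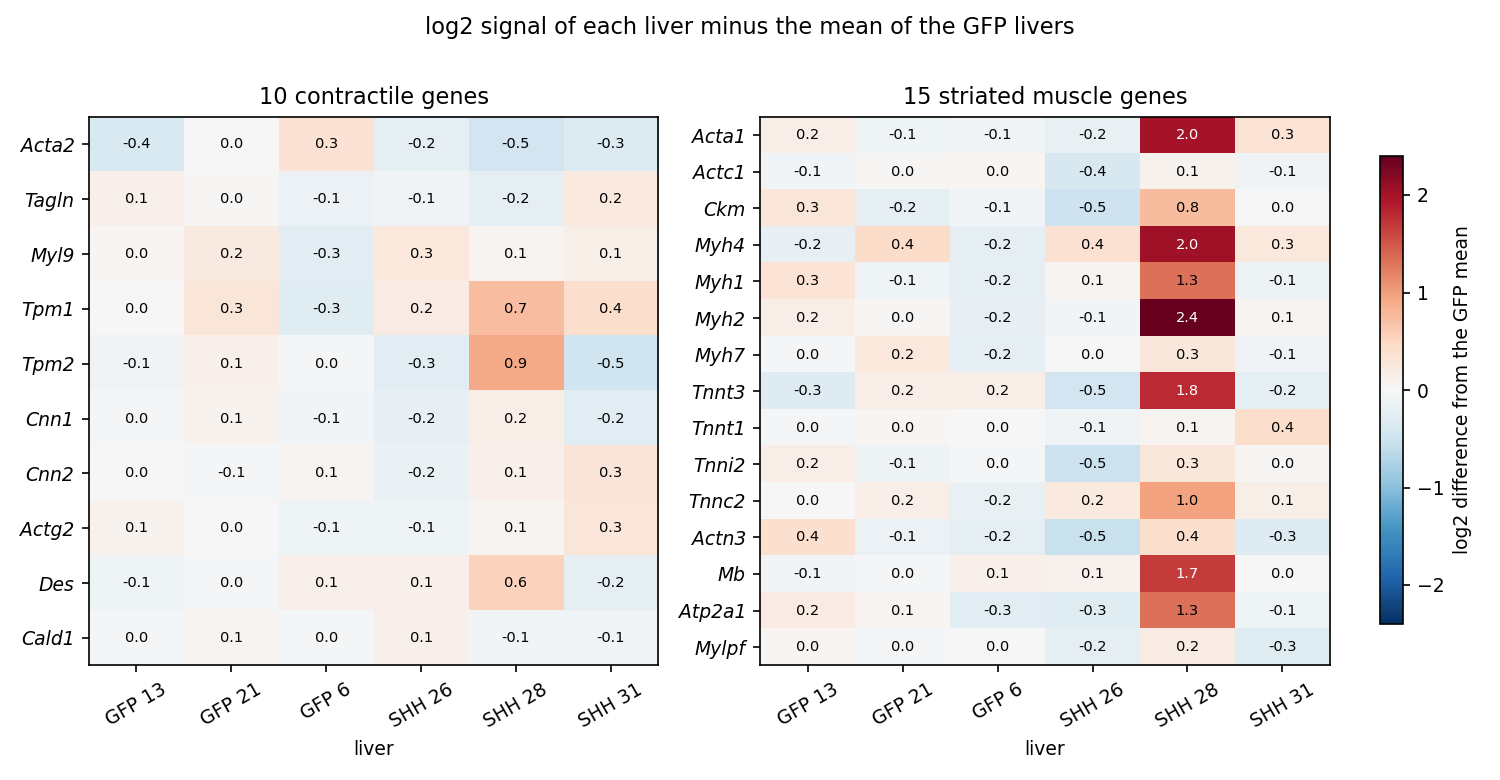
Log2 signal of each liver minus the mean of the GFP livers (colour and printed value) for the 10 contractile genes, left, and 15 striated muscle genes, right; columns are livers. The column of SHH 28 holds the highest values of 14 of the 15 muscle genes and of Tpm1, Tpm2, Cnn1 and Des.

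Acta2 encodes alpha smooth muscle actin, the usual mark of an activated stellate cell. It was 6.08, 6.45 and 6.78 in GFP 13, 21 and 6 and 6.22, 5.97 and 6.12 in SHH 26, 28 and 31. The SHH livers lay close together and under GFP 21 and GFP 6, while GFP 13 lay between SHH 28 and SHH 31. The SHH mean was 1.26-fold lower, and the difference was -0.33 (limma, SE 0.18, adjusted p = 0.753). Its 95% interval ran from -0.75 to 0.08, from 1.68-fold lower to 1.05-fold higher. With 1 mouse left out the upper end of that interval lay between 0.91 and 1.17 times the GFP level. Without GFP 13 the difference was -0.51 (unadjusted p = 0.0137 and adjusted p = 0.843 in limma), without GFP 6 it was -0.17, and over all alternatives the adjusted p ran from 0.629 to 0.943.

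Actg2, the gamma smooth muscle actin of gut and vessel walls, was dim in every liver. It was 3.87, 3.80 and 3.69 in GFP 13, 21 and 6 and 3.69, 3.85 and 4.08 in SHH 26, 28 and 31, below the median signal of all probe sets on every array (4.32 to 4.40). Array signals of dim genes tend to understate a change. The difference was 0.09 (95% interval -0.23 to 0.40) and became -0.02 without SHH 31, the highest liver.

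The actin-binding genes showed no common direction. Tagln encodes transgelin, which bundles actin filaments in smooth muscle. It was 6.14, 6.04 and 5.87 in GFP 13, 21 and 6 and 5.93, 5.79 and 6.26 in SHH 26, 28 and 31, so that an SHH liver was the highest and another the lowest. The difference of -0.02 (95% interval -0.37 to 0.32) ran from -0.15 without SHH 31 to 0.08 without SHH 28.

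Cald1 encodes caldesmon, which blocks the binding of myosin to actin. It was 8.24, 8.35 and 8.25 in GFP 13, 21 and 6 and 8.41, 8.21 and 8.21 in SHH 26, 28 and 31. Its pooled SD of 0.09 was the smallest of the 10 genes, and 89.5% of all genes had a larger one. The difference was -0.00, with a 95% interval of -0.28 to 0.27, so changes over 1.22-fold downward or 1.21-fold upward lay outside it. The sign of so small a value turned under 6 of 15 alternatives, second quantile normalization and equal array medians among them. Probe set choice could not turn it, as Cald1 had 1 probe set, and neither could the priors or keeping only brighter genes.

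Cnn1 encodes basic calponin of differentiated smooth muscle. It was 4.42, 4.54 and 4.39 in GFP 13, 21 and 6 and 4.26, 4.62 and 4.21 in SHH 26, 28 and 31. SHH 26 and SHH 31 lay below all GFP livers and SHH 28 above them. The difference of -0.09 (95% interval -0.42 to 0.24) became -0.22 without SHH 28.

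Cnn2 encodes the calponin of nonmuscle cells, macrophages included. It was 5.34, 5.29 and 5.40 in GFP 13, 21 and 6 and 5.19, 5.47 and 5.65 in SHH 26, 28 and 31. SHH 31 was the highest and SHH 26 the lowest liver. The difference of 0.09 (95% interval -0.24 to 0.42) became -0.02 without SHH 31 and 0.21 without SHH 26.

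Myl9 encodes the regulatory light chain of smooth muscle myosin, whose phosphorylation starts contraction. It was 5.62, 5.80 and 5.32 in GFP 13, 21 and 6 and 5.84, 5.65 and 5.72 in SHH 26, 28 and 31. The SHH livers spanned 0.19 and the GFP livers 0.49, and the SHH values lay within or just above the GFP range. The difference was 0.16 (95% interval -0.19 to 0.50; limma, adjusted p = 0.878), and 0.03 without GFP 6, the lowest liver.

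**Figure D3:**
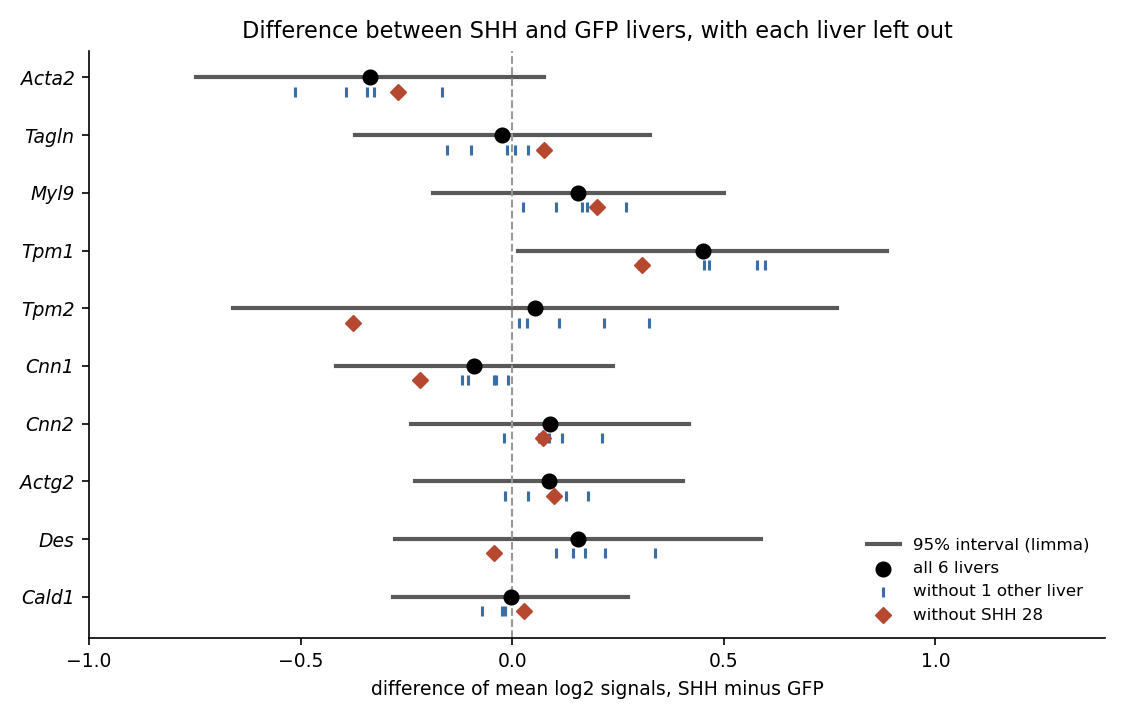
Difference of mean log2 signals, SHH minus GFP (x axis), for the 10 contractile genes (y axis); black points use all 6 livers, bars are 95% intervals from limma, and marks below them give the value with 1 liver left out. Removing SHH 28 moves Tpm2 from 0.05 to -0.38 and Des from 0.16 to -0.04, and the interval of Tpm1, from 0.01 to 0.89, is the only one of the 10 that leaves out 0.

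The liver with the highest signal was not the same for all 10 genes. GFP 6 had the highest Acta2 signal of all livers and the lowest Myl9, Tpm1 and Actg2. SHH 31 was the lowest liver for 4 genes and the highest for 3, and SHH 28 was the highest for 4 and the lowest for 2. The mean shift of the 10 genes from the GFP mean was -0.04, 0.08 and -0.04 in GFP 13, 21 and 6 and -0.03, 0.19 and 0.01 in SHH 26, 28 and 31. As a description over the 6 arrays, which include both groups, the Pearson correlation of Acta2 was below 0 with 8 of the other 9 genes, from -0.74 (Tpm1) to 0.26 (Cald1). Among 11089 other genes above the median mean level, those closest to Acta2 over the same arrays were Pigv (0.98), Ago1 (0.98), Ammecr1l (0.97), Mir758 (0.97) and Ethe1 (0.96), none of them a contractile gene.

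Regulatory sequence was examined for the CArG box, since serum response factor and its cofactors act through it. RefSeq promoter windows (GRCm38.p6, from 250 bases before to 50 after the start) were matched for 8 of the 10 genes. Tagln and Actg2 had no window here, so they were not searched for a box. An exact CArG box, searched on both strands, was found in 2 of the 8, Myl9 and Cnn2, against 1.63% of all 32851 promoters. With up to 1 mismatch allowed, 5 of the 8 held such a box, against 21.1% of all promoters. The windows of Acta2, Myl9 and Cnn2 are shown in capitals at each box, on the strand of the gene. Both boxes of Acta2 (chr19:34255368-34255487, minus strand) carry 1 mismatch, Myl9 (chr2:156775273-156775404, plus strand) has an exact box followed by a box with 1 mismatch, and Cnn2 (chr10:79988514-79988583, plus strand) has 1 exact box.
Acta2: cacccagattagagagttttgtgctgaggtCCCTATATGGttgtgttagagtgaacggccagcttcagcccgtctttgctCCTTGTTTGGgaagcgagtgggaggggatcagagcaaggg
Myl9: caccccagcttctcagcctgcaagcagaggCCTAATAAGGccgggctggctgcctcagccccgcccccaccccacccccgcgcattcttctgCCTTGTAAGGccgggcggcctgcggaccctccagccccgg
Cnn2: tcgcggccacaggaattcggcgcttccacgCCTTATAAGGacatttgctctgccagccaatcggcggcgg
The boxes of Acta2 begin 84 and 34 bases before the annotated start, those of Myl9 161 and 99, and that of Cnn2 56. The other members with a box of 1 mismatch were Tpm1 and Cald1. The differences between SHH and GFP livers were -0.33 for Acta2, 0.16 for Myl9, 0.09 for Cnn2, 0.45 for Tpm1 and -0.00 for Cald1, and none passed the threshold. A match of letters does not show that the factor binds there.

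Serum response factor and its cofactors were also measured. Srf itself was 5.85 to 5.96 in GFP livers and 6.22, 5.94 and 5.75 in SHH 26, 28 and 31, a difference of 0.06 (95% interval -0.27 to 0.39). Mrtfa, a cofactor released when actin polymerises, was 4.99 to 5.27 in GFP livers and 5.24, 5.71 and 5.55 in SHH 26, 28 and 31, a difference of 0.38 (95% interval 0.03 to 0.73; limma, adjusted p = 0.663). Myocd, the cofactor of the smooth muscle programme, was 4.22 to 4.53 in GFP livers and 4.04, 3.76 and 4.26 in SHH 26, 28 and 31, a difference of -0.37 (95% interval -0.73 to -0.01; limma, adjusted p = 0.673). Both had overlapping groups, and neither passed the threshold. Mrtfb differed by -0.07.

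Target genes of serum response factor completed this list, and the 3 genes of the list with the smallest p were among them. Egr1, an immediate early factor, was 5.18 to 5.53 in GFP livers and 6.75, 8.33 and 6.57 in SHH 26, 28 and 31, 3.68-fold higher. Fos was 4.38 to 4.57 in GFP livers and 4.67, 5.67 and 5.56 in the SHH livers, 1.75-fold higher. Ccn1, a matricellular gene, was 7.67 to 8.29 in GFP livers and 6.91, 6.57 and 6.95 in SHH livers, 2.16-fold lower. These 3 are described because of their small p. In limma the adjusted p was 0.409 for Egr1, 0.530 for Fos and 0.302 for Ccn1. Of the 16 genes of this list, 7 had higher and 9 lower means, 0 passed, and the median difference was -0.04 against -0.03 for all genes. The groups did not overlap for 4 of the 16, against 12.5% of all genes. The SHH livers were higher for 3 of them and lower for 1, against 5.26% and 7.25% of all genes. Among related immediate early genes, Junb was 1.56-fold higher with groups that did not overlap (limma, adjusted p = 0.599). Egr2 and Fosb differed by -0.09 and -0.02 with groups that overlapped.

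**Figure D4:**
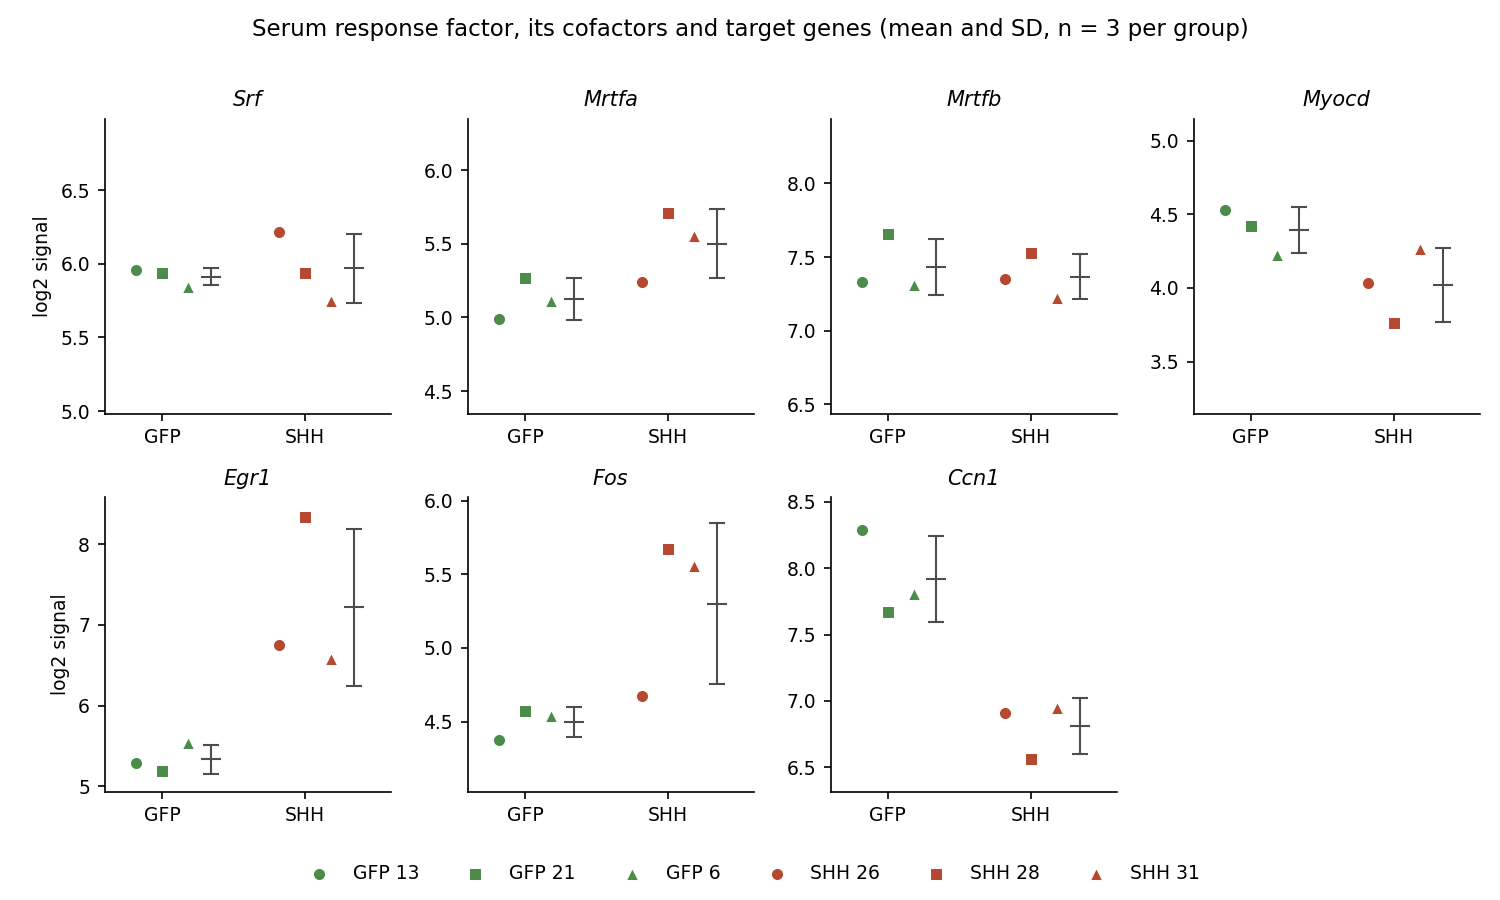
Log2 signal (y axis) of serum response factor, its cofactors and 3 of its target genes in each liver, with each group's mean and SD (n = 3) to the right of its points; panels differ in range and span at least 2 units. Egr1, Fos and Ccn1 show groups that do not overlap, while Srf, Mrtfa, Mrtfb and Myocd overlap.

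The rest of the smooth muscle apparatus gave 19 measured genes, of which 11 had higher and 8 lower means. Of these 0 passed, and the median difference was 0.01. Myh11, the myosin heavy chain that defines differentiated smooth muscle, was 5.29, 5.47 and 5.62 in GFP 13, 21 and 6 and 5.17, 5.11 and 5.47 in SHH 26, 28 and 31, a difference of -0.21 (95% interval -0.55 to 0.13). Its highest liver was GFP 6 and its lowest SHH 28, as for Acta2. The nonmuscle myosin gene Myh9 was 8.06 to 8.30 in GFP livers and 8.36, 8.65 and 8.92 in SHH 26, 28 and 31, 1.35-fold higher (limma, adjusted p = 0.629). The actin crosslinker Flna was 5.82 to 6.21 in GFP livers and 6.18, 6.21 and 6.88 in SHH livers. Dmd, the dystrophin gene, differed by 0.26, with its highest value, 4.92, in SHH 28.

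Relatives of the 10 genes from the same families gave 15 measured genes, with 8 higher and 7 lower means, 0 past the threshold and a median difference of 0.09. The largest difference, 0.71, was that of Acta1, which also stands in the striated muscle list and was highest in SHH 28, at 6.90. Tpm4, a nonmuscle tropomyosin, was 6.64, 6.02 and 6.43 in GFP 13, 21 and 6 and 6.82, 6.57 and 7.18 in SHH 26, 28 and 31, 1.41-fold higher (limma, adjusted p = 0.667). The cytoplasmic actins Actb and Actg1 differed by 0.20 and 0.41 and were both highest in SHH 31, at 10.13 and 7.51. The light chain genes Myl6b and Myl6 were 1.44-fold and 1.31-fold lower, and neither passed. Transcripts of the actin family are closely related, and signal shared between their probe sets was not tested.

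Genes that switch contraction on gave 16 measured genes, with 10 higher and 6 lower means and a median difference of 0.04. The calmodulin kinase gene Camk2g was 5.51 to 5.85 in GFP livers and 5.97, 6.12 and 5.92 in SHH 26, 28 and 31, so its groups did not overlap (1.27-fold higher; limma, adjusted p = 0.656). The small GTPase genes Rhoc and Rhob differed by 0.35 and 0.21. None of the 16 passed.

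Markers of other cell types were also read in each liver. All 10 leukocyte genes had a higher mean in SHH livers, and their mean shift was -0.12, -0.11 and 0.24 in GFP 13, 21 and 6 and 0.37, 0.93 and 1.37 in SHH 26, 28 and 31. Ptprc, the gene of the common leukocyte antigen CD45, was 5.99 to 6.51 in GFP livers and 6.72, 7.02 and 8.03 in SHH livers. S100a9 and S100a8, a pair of neutrophil genes, were 3.59-fold and 2.83-fold higher, Itgam was 1.79-fold higher, and Lyz2 and Cd68 differed by 0.63 and 0.51. None passed the threshold. SHH 31, with the highest leukocyte shift, was the highest liver for 3 of the 10 contractile genes (Cnn2, Tagln and Actg2) and the lowest for 4 (Tpm2, Cnn1, Des and Cald1), and it was the highest for 18.8% of all genes. It was also the highest for 4 of the 19 smooth muscle apparatus genes, Myh9 and Flna among them, and for 5 of the 15 family relatives, Tpm4, Actb and Actg1 among them. The part of leukocyte RNA in those values was not tested.

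Endothelial markers were lowest in SHH 28, for 9 of 10 genes, and highest in GFP 6, for 6 of 10. Their mean shift was -0.04, -0.19 and 0.23 in GFP 13, 21 and 6 and -0.25, -0.54 and 0.14 in SHH 26, 28 and 31. Acta2 and Myh11 had their highest and lowest values in the same 2 livers. Of the 10 contractile genes, no other was highest in GFP 6, and Tagln was also lowest in SHH 28. Myl9, Tpm1 and Actg2 were instead lowest in GFP 6. Tpm1, Tpm2, Cnn1 and Des were highest in SHH 28. A link of these genes to the endothelial signal was not tested. All 10 endothelial means were lower in SHH livers, and 5 of 10 without SHH 28. Clec4g, Tie1 and Tek differed by -0.44, -0.35 and -0.34, Stab2 and Cdh5 by -0.15 and -0.03, and none passed.

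Stellate cell markers were present in every liver. Dcn, the decorin gene, was 9.89 to 10.23 in GFP livers and 10.29, 10.17 and 10.44 in SHH 26, 28 and 31. Ecm1 and Rgs5 lay between 7.60 and 8.42 in all 6, with lower SHH means (differences of -0.15 and -0.11). Of 13 stellate markers, 10 had higher and 3 lower means, with a median difference of 0.12 and 0 past the threshold. Without SHH 28 there were 8 higher and 5 lower means and the median was 0.20. Their mean shift was 0.04, -0.10 and 0.05 in GFP 13, 21 and 6 and 0.19, 0.05 and 0.14 in SHH 26, 28 and 31. The collectin gene Colec10 was 6.86 to 7.16 in GFP livers and 7.83, 7.36 and 7.56 in SHH livers (1.45-fold higher; limma, adjusted p = 0.521), and Ngfr was 1.25-fold higher (limma, adjusted p = 0.707). In the liver with the highest stellate shift, SHH 26, Acta2 was 6.22 and Des 5.19, both within the range of the GFP livers. Tagln, Tpm1 and Actg2 also lay within that range in SHH 26. Myl9 (5.84) and Cald1 (8.41) lay above it, and Tpm2 (4.11), Cnn1 (4.26) and Cnn2 (5.19) below it.

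Vascular smooth muscle markers gave no shared direction, with 5 of 10 means higher and a median difference of -0.06. Mustn1, a small nuclear gene of muscle and skeleton, was 5.50, 6.21 and 6.01 in GFP 13, 21 and 6 and 6.47, 7.24 and 7.14 in SHH 26, 28 and 31, 2.06-fold higher (limma, adjusted p = 0.409). Notch3 was 1.22-fold higher, and Map3k7cl and Pln were 1.24-fold and 1.26-fold lower. The groups did not overlap for these 4 of the 10, against 12.5% of all genes, and none passed. The SHH livers were higher for 2 and lower for 2, against 5.26% and 7.25% of all genes. Myh11, Lmod1 and Synpo2 stand in this list and in that of the smooth muscle apparatus.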

How the data were processed

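Total RNA of 6 livers was labelled with biotin and measured on Affymetrix arrays, per the labels' protocols. The deposited values are log2 signals of 41345 probe sets, made by the authors with RMA, per the submitters' processing notes; the sources used here give neither its version nor its probe set level. RMA makes arrays alike in distribution, so a shift common to all genes cannot be seen. Platform annotation named 1 gene for 23521 probe sets, several for 1814 and none here for 16010.

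For each gene the probe set with the highest mean was taken. The SHH against GFP difference was fitted over 22180 genes in R 4.3.3 by limma 3.58.1, using eBayes after lmFit with no covariate and no filter, two-sided, with Benjamini-Hochberg adjustment and a threshold of 0.05. Intervals are 95% intervals from that fit, spreads are SD over 3 mice, and folds are 2 to the power of the log2 difference. The number of arrays limits the precision. The scripts were tested on simulated data.

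The members and gene lists were chosen with earlier results of these data known. Named were the 10 members, up to 3 genes per other list with the smallest p, the factors and actins listed by name with Myh11, the 3 brightest genes of each marker list, and the 5 genes most like Acta2. Tnnt3, Myh2, Actc1 and Myh7, among the muscle genes, and Junb, Egr2, Fosb, Pln, Lmod1 and Synpo2 were named after their values were seen. Some listed genes were not analysed here.

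The alternatives were the mean or the most variable probe set of a gene, array weights, a robust or trended prior, equal array medians, quantile normalization applied again, every probe set on its own, the brighter part of the genes, and leaving out each mouse.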

Additional observations from a re-analysis of the deposited data

How the results depend on the processing

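No member passed the threshold under any of the 147 alternatives run on single members. Over all genes 0 were called in each setting run with 1 value per gene and all 6 mice, and 0 to 46 with 1 mouse left out, the 46 coming without SHH 26 and holding 0 of the 10 members. Signs of Acta2, Myl9, Tpm1 and Cnn1 held throughout. Probe set choice could not change a sign, since each member had 1 usable probe set, and neither could the priors or keeping only brighter genes. With 1 mouse left out the other differences ran from -0.155 to 0.0760 for Tagln, -0.376 to 0.323 for Tpm2, -0.0190 to 0.212 for Cnn2, -0.0179 to 0.178 for Actg2, -0.0425 to 0.337 for Des and -0.0705 to 0.0321 for Cald1. Cald1 was also 0.0198 after a second quantile normalization, 0.0189 with equal array medians and 0.0269 with array weights. These sign changes are of values whose 95% intervals held 0 with all 6 livers. The median difference of the members ran from 0.01 to 0.14 with 1 mouse left out and from 0.04 to 0.09 otherwise. Leaving out genes under the median level removed Tpm2, Cnn1 and Actg2, whose dim signals limit what they can show. The values without SHH 28 for lists of other cell types were added after seeing the data. No paired analysis was possible because the groups share no mouse numbers.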

Other observations

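Other cell types that a piece of liver can hold were read from marker lists in the same way. Of 14 markers of portal fibroblasts and the liver capsule, 6 had higher and 8 lower means, with a median difference of -0.02 and 0 past the threshold. Gas6 was 6.48 to 6.69 in GFP livers and 6.61, 7.67 and 7.45 in SHH 26, 28 and 31, 1.55-fold higher, and Thy1, Cd34 and Eln differed by 0.25, 0.20 and 0.23, Dpt by -0.08. Of 5 platelet genes, 5 had higher means, with a median of 0.17 and 0 past the threshold; Ppbp was 1.28-fold, Gp9 1.23-fold and Pf4 1.12-fold higher, and Itga2b differed by 0.02.

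Hepatocyte markers differed little, with a median of 0.01 over 9 genes and 0 past the threshold. Alb differed by 0.01, Ttr by 0.02, Cyp2e1 by -0.09, Apoa1 by 0.16 and Hnf4a by 0.15. The fibrinogen gene Fgb was 12.64 to 12.90 in GFP livers and 13.07, 13.17 and 13.09 in SHH 26, 28 and 31, 1.24-fold higher with groups that did not overlap (limma, adjusted p = 0.665). Tnnc2 and Myh4, of the striated muscle list, were 1.37-fold and 1.85-fold higher, with 6.43 and 4.98 in SHH 28 as the highest values and neither past the threshold.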
